A study of Homo sapiens with 6 samples.

Results

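A set of 10 genes, the ATG8 family and the receptors of autophagy, was followed here in RKO, a line of human colon carcinoma cells, after knockdown of TRMT6, a subunit of the enzyme that methylates adenine in tRNA, out of 20289 genes in the deposited table. They were the ATG8 family (MAP1LC3A, MAP1LC3B, MAP1LC3C, GABARAP, GABARAPL1 and GABARAPL2) and 4 cargo receptors (SQSTM1, NBR1, OPTN and TAX1BP1). All 10 symbols matched 1 row each. The genes were chosen by name and selected on their FPKM difference between knockdown and control, in which MAP1LC3C was lower while the GABARAP genes were higher, so their differences are described and not tested. RKO cells with a short hairpin RNA against TRMT6 (shTRMT6, 3 libraries) were compared with RKO cells with a control hairpin (shControl, 3 libraries). Both groups carry a hairpin, no other agent is named, and nothing says whether the 3 libraries of a group came from separate cultures or how many hairpins were used.

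Autophagy encloses cytoplasmic material in a double membrane and delivers it to the lysosome. ATG8 proteins are small ubiquitin-like proteins that ATG4 proteases trim and that the enzymes ATG7 and ATG3 attach to a lipid of the growing membrane. The LC3 and GABARAP subfamilies then bind short motifs in receptors, which hold ubiquitin-marked cargo and are degraded with it. The values here are mRNA levels, and neither protein nor autophagic activity was measured.

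TRMT6 itself had 1.58, 1.73 and 1.09 FPKM (fragments per kilobase of gene, scaled to the library total) in the shTRMT6 libraries, against 14.4, 17.96 and 16.9 FPKM in the shControl libraries. It was 11.2-fold lower in shTRMT6 (limma adjusted p = 4.33e-08). An exact two-sided permutation test gave p = 0.1, the smallest that 3 libraries against 3 allow. Of 8 colorectal epithelial markers, 4 reached 1 FPKM (EPCAM, CDX2, KRT8 and KRT18), and CDH1, KRT19, KRT20 and VIL1 were listed at 0 in all 6 libraries. The summed level of these 8 markers was 201 to 214 FPKM in shTRMT6 and 124 to 156 FPKM in shControl, mostly KRT18, and its part in the results below was not tested. Of 4 mesenchymal markers, 2 reached 1 FPKM (VIM and ZEB1). The sum of these 4 was 28.4 to 34.9 FPKM in shTRMT6 and 21.85 to 31.1 FPKM in shControl. Sums of fibroblast, endothelial and blood cell markers stayed at or below 1.27 FPKM in every library. In a bulk sample, a change in the share of cells and a change of RNA per cell cannot be told apart. Depth, estimated from the steps between low values, was roughly 18000000 to 20100000 fragments in shTRMT6 and 21300000 to 28200000 in shControl. The estimate for shControl replicate 2 was the least certain, as another depth fitted its values nearly as well. FPKM is scaled to gene length, so levels of different genes are set side by side below on that scale.

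Of the 10 genes, 9 reached the mean of 1 FPKM required for testing, and their 2 groups of libraries did not overlap for any of them. In shTRMT6, 8 were higher and 1 was lower. Among all 10592 tested genes the groups did not overlap for 48.3%, with shTRMT6 higher for 26.2% and lower for 22.1%. These counts describe how the genes were picked. The ratio of mean FPKM of the 8 higher genes ran between 1.31 and 2.35.

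**Figure D1:**
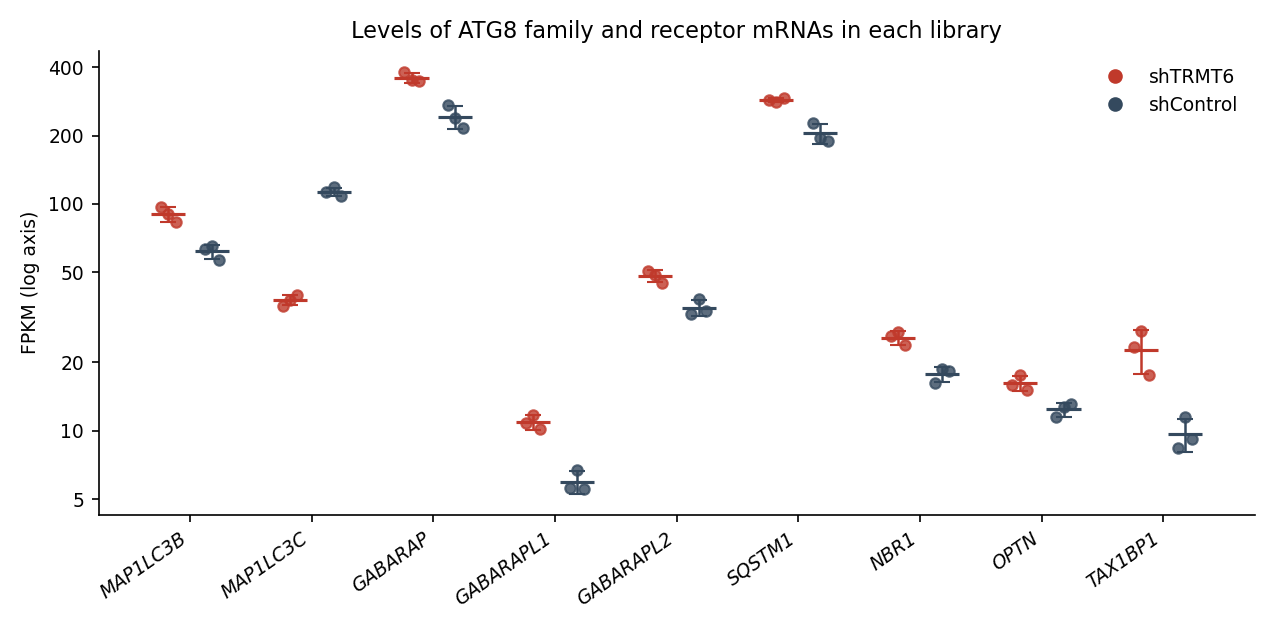
FPKM on a log axis for the 9 genes above the level for testing, with 1 point per library, the group mean as a bar and the SD as whiskers (n = 3 libraries a group). MAP1LC3C is the gene whose shTRMT6 libraries (35.6 to 39.8 FPKM) lie below its shControl libraries (108 to 118 FPKM), and the other 8 lie above.

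The expressed LC3 genes differed in opposite directions. MAP1LC3C, which in human cells binds the receptor CALCOCO2 in the clearance of bacteria, had 35.6, 37.9 and 39.8 FPKM in shTRMT6, against 112, 118 and 108 FPKM in shControl. All 3 shTRMT6 libraries were low, and the gap to the nearest shControl library was 68.3 FPKM. The means were 37.8 ± 2.09 FPKM in shTRMT6 and 112.8 ± 5.01 FPKM in shControl (SD, n = 3 each), a level 2.99-fold lower in shTRMT6. By this ratio MAP1LC3C held rank 16 from the lowest of 10592 tested genes. Its mean lay above that of 77.8% of tested genes in shTRMT6, against 92.9% in shControl.

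MAP1LC3B, the LC3 that serves as the usual marker of autophagosomes, had 97.1, 89.8 and 83.2 FPKM in shTRMT6, against 63.3, 65.0 and 56.7 FPKM in shControl. All shTRMT6 libraries were the higher ones, with a ratio of means of 1.46. MAP1LC3A, the remaining LC3 gene, was listed at 0 in all 3 shTRMT6 libraries and at 0, 0.06 and 0 FPKM in shControl, so no fold is given. The order of the subfamily thereby differed between the groups. MAP1LC3B exceeded MAP1LC3C by 2.09-fold to 2.72-fold in the shTRMT6 libraries, whereas MAP1LC3C exceeded MAP1LC3B by 1.77-fold to 1.90-fold in the shControl libraries.

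All 3 GABARAP genes were higher in shTRMT6. GABARAP, first found as a partner of the GABA type A receptor and thought to act late in autophagosome maturation, had 382, 351 and 347 FPKM in shTRMT6, against 273, 238 and 216 FPKM in shControl. Its lowest shTRMT6 library stood 74.1 FPKM above its highest shControl library, and the ratio of means was 1.49. It was the most abundant of the 9 genes in both groups. GABARAPL1, the least abundant, had 10.8, 11.8 and 10.2 FPKM in shTRMT6, against 5.58, 6.74 and 5.56 FPKM in shControl. Its ratio of means, 1.83, was the highest of the ATG8 family. GABARAPL2, also known as GATE-16 for its role in Golgi transport, had 50.5, 48.8 and 44.7 FPKM in shTRMT6, against 32.8, 38.2 and 33.6 FPKM in shControl, with a ratio of 1.38. The 3 genes therefore kept the same order in both groups, GABARAP above GABARAPL2 above GABARAPL1, with no overlap between neighbours.

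Put together, the make-up of the family differed between the groups. The summed level of the 6 ATG8 genes was 546.7 ± 26.1 FPKM in shTRMT6 and 457.7 ± 34.3 FPKM in shControl (SD, n = 3 each), a ratio of 1.19. The 2 subfamilies differed in direction within that sum: the GABARAP sum was 418.9 ± 21.4 FPKM in shTRMT6 and 283.1 ± 28.05 FPKM in shControl, while the LC3 sum was 127.8 ± 4.85 FPKM in shTRMT6 and 174.5 ± 9.25 FPKM in shControl. MAP1LC3C made up 6.19%, 7.02% and 7.59% of the family's FPKM in shTRMT6, against 23.1%, 25.3% and 25.7% in shControl. GABARAP made up 65.1% to 66.3% in shTRMT6 and 51.1% to 56.0% in shControl. MAP1LC3B made up a larger share in shTRMT6 too, with means of 16.4% in shTRMT6 and 13.5% in shControl. These shares are of mRNA scaled to length, not of protein, and the parts of 1 sum are not independent of each other.

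**Figure D2:**
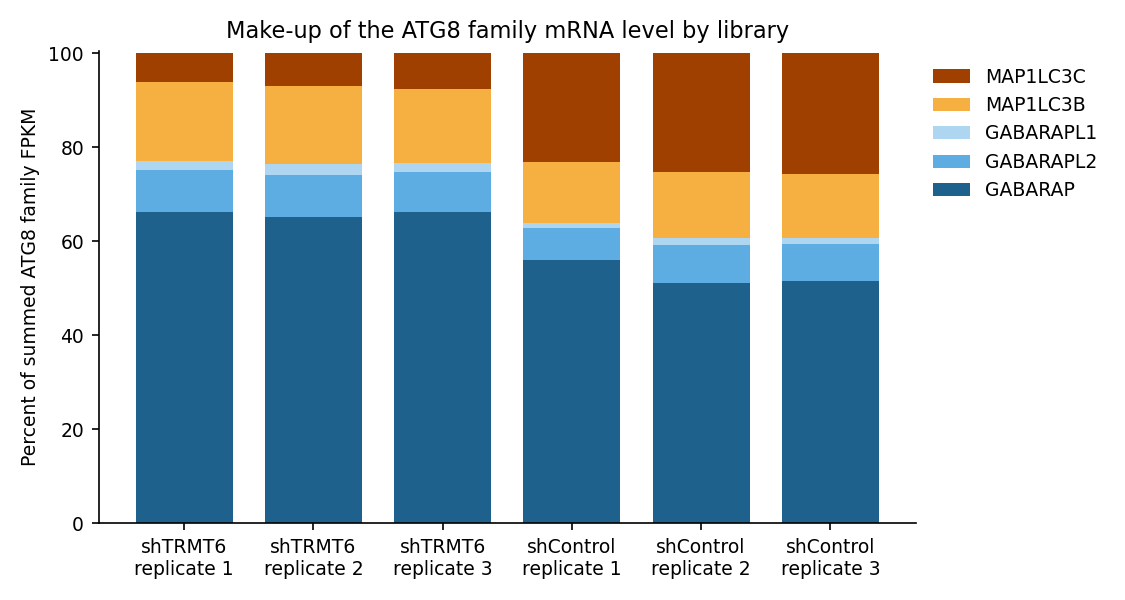
Stacked bars give each ATG8 gene's percent of the summed FPKM of the family in each of the 6 libraries (MAP1LC3A, at or near 0, is not drawn). The MAP1LC3C segment is 6.19% to 7.59% in the 3 shTRMT6 libraries and 23.1% to 25.7% in the 3 shControl libraries.

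The 250 bases before the RefSeq start of the 5 expressed ATG8 genes are shown to set the gene that was lower beside the 4 that were higher. They are from the RefSeq promoter table (GRCh38.p14), written 5′ to 3′ on the strand of the gene: MAP1LC3C at chr1:241999099-241999348 (minus), MAP1LC3B at chr16:87392086-87392335 (plus), GABARAP at chr17:7242450-7242699 (minus), GABARAPL1 at chr12:10212627-10212876 (plus) and GABARAPL2 at chr16:75566129-75566378 (plus). Capitals mark every match on either strand to the words searched, which were the GC box GGGCGG, the CCAAT box CCAAT, the E-box CACGTG bound by TFEB, the FOXO word GTAAACA, the TATA box TATAAA, the antioxidant response core TGACNNNGC, the ATF4 core TGATGNAA and the AP-1 word TGANTCA.
MAP1LC3C: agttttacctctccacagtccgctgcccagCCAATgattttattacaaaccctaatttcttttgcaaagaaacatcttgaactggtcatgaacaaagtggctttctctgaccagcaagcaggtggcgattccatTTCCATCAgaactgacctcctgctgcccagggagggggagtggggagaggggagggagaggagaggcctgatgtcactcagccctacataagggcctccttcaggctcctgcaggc
MAP1LC3B: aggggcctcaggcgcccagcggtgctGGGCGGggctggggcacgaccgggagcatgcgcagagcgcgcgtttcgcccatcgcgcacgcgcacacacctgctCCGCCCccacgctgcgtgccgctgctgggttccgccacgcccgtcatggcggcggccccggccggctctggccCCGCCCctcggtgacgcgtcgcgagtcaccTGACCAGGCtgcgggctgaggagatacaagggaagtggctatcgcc
GABARAP: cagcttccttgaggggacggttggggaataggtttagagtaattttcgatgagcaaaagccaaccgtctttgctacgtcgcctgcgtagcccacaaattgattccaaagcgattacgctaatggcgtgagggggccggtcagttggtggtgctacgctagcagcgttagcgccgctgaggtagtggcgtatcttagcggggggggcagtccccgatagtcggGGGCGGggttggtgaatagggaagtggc
GABARAPL1: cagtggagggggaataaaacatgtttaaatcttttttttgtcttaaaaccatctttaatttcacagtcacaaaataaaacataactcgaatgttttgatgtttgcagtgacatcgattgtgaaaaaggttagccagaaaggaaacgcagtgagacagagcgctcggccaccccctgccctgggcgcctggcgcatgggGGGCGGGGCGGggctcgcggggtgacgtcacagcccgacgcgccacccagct
GABARAPL2: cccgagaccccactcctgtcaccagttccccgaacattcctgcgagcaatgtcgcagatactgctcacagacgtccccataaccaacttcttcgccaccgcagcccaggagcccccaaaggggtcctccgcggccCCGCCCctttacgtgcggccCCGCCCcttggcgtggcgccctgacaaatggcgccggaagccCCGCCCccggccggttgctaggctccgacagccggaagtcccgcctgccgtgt

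The MAP1LC3C window holds no GC box, 1 CCAAT box that starts 220 bases before the start, and 1 ATF4 core at 116 bases. Each of the other 4 windows holds 1 to 3 GC boxes, and the MAP1LC3B window also holds 1 antioxidant response core, at 46 bases. The 2 GC boxes of GABARAPL1 share a base. Of all 35116 promoter windows of this length in the table, 42.6% hold the GC box, 32.01% the CCAAT box, 10.9% the antioxidant response core and 3.14% the ATF4 core. CG dinucleotides number 2 in the MAP1LC3C window, against 33, 19, 15 and 24 in those of MAP1LC3B, GABARAP, GABARAPL1 and GABARAPL2; the median over all windows is 11. None of these 5 windows holds the E-box, the FOXO word, the TATA box or the AP-1 word, which occur in 6.34%, 2.98%, 10.7% and 6.57% of all windows. The receptors, which were higher in shTRMT6, have 9 windows in the same table. The first TAX1BP1 window also holds no GC box and 1 CG, but its second window holds 2 GC boxes and 22 CG. The second NBR1 window holds 2 CCAAT boxes. The ATF4 core occurs in the MAP1LC3C window and in no other window of these genes. The part of these words in the differences was not tested. The other receptor windows hold 1 to 5 GC boxes and 10 to 29 CG. The words were picked after the values were known, and a match is a run of letters, not a bound site.

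The receptors were all higher in shTRMT6. SQSTM1, which encodes p62, the receptor that gathers ubiquitin-marked proteins and also binds KEAP1, had 286, 281 and 291 FPKM in shTRMT6, against 228, 195 and 190 FPKM in shControl. The shTRMT6 libraries lay close together (coefficient of variation 1.85%, against 10.2% in shControl), and the ratio of means was 1.40. NBR1, a receptor of similar build that acts with p62 and in the turnover of peroxisomes, had 26.2, 27.2 and 23.8 FPKM in shTRMT6, against 16.2, 18.7 and 18.4 FPKM in shControl, a ratio of 1.45. OPTN, optineurin, a receptor for damaged mitochondria and bacteria that the kinase TBK1 activates, had 15.95, 17.6 and 15.2 FPKM in shTRMT6, against 11.45, 12.7 and 13.1 FPKM in shControl. Its ratio, 1.31, was the smallest among the 8 higher genes, and its groups were 2.1 FPKM apart.

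TAX1BP1, which binds ubiquitin and the initiation factor RB1CC1, had 23.4, 27.4 and 17.6 FPKM in shTRMT6, against 8.37, 11.5 and 9.23 FPKM in shControl. It had the highest ratio of the 9 genes, 2.35, at rank 80 from the highest of all tested genes, and also the widest spread, with coefficients of variation of 21.7% in shTRMT6 and 16.6% in shControl. Library by library the ratio was 2.79, 2.39 and 1.90 for replicates 1, 2 and 3. TAX1BP1 has the lowest GC content of the 10 transcripts (39.2%), and its level moved with the GC trend of the libraries: among the shTRMT6 libraries it was highest in replicate 2, whose log2 values changed by -0.15 per 10 points of GC relative to the mean of all libraries, and lowest in replicate 3 (-0.025). In shControl it was lowest in replicate 1, where the same slope was 0.22. Removing each library's GC trend left a ratio of 1.96, and leaving out single libraries gave ratios from 2.11 to 2.62. The part of GC content in the TAX1BP1 difference beyond these values was not tested.

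The summed level of the 4 receptors was 350.8 ± 2.52 FPKM in shTRMT6 and 244.2 ± 17.7 FPKM in shControl (SD, n = 3 each), 1.44-fold higher in shTRMT6. SQSTM1 made up 79.6% to 83.7% of that sum in shTRMT6 and 82.0% to 86.35% in shControl, ranges that overlap. TAX1BP1 made up 5.05% to 7.76% in shTRMT6 and 3.17% to 4.82% in shControl. Relative to the receptors, ATG8 mRNA stood at 1.51 to 1.64 in shTRMT6 and 1.82 to 1.96 in shControl. So receptor mRNA was higher by a larger factor than the ATG8 sum, in which MAP1LC3C ran the other way.

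Ordered by level, shTRMT6 libraries read GABARAP, SQSTM1, MAP1LC3B, GABARAPL2, MAP1LC3C, NBR1, TAX1BP1, OPTN and GABARAPL1. In shControl the order was GABARAP, SQSTM1, MAP1LC3C, MAP1LC3B, GABARAPL2, NBR1, OPTN, TAX1BP1 and GABARAPL1. MAP1LC3C thus stood at place 5 in shTRMT6 and place 3 in shControl. Neighbours whose libraries overlapped were NBR1 with TAX1BP1 and TAX1BP1 with OPTN in shTRMT6, and GABARAP with SQSTM1 and OPTN with TAX1BP1 in shControl. All other neighbours were apart.

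The differences of these genes kept their direction under every scaling tried and without any single library. With the GC trend removed, MAP1LC3C was 2.90-fold lower in shTRMT6, and the ratios of the 8 higher genes ran from 1.18 (OPTN) to 1.96 (TAX1BP1). The ratio of SQSTM1, whose transcript is 58.0% GC, was 1.54 after the correction. The groups stayed apart for all 9 genes under quantile normalization, median-of-ratios scaling, the GC correction and each left-out library. The median log2 ratio of all tested genes was 0.025, and -0.045 among genes in the same decile of GC content as MAP1LC3C, GABARAP and GABARAPL1. In the deciles of other members it was 0.045 (MAP1LC3B), 0.145 (GABARAPL2, NBR1 and OPTN), 0.279 (TAX1BP1) and -0.161 (SQSTM1). The log2 ratios of GABARAPL2, NBR1 and OPTN themselves were 0.461, 0.534 and 0.387, and that of TAX1BP1 was 1.233.

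**Figure D3:**
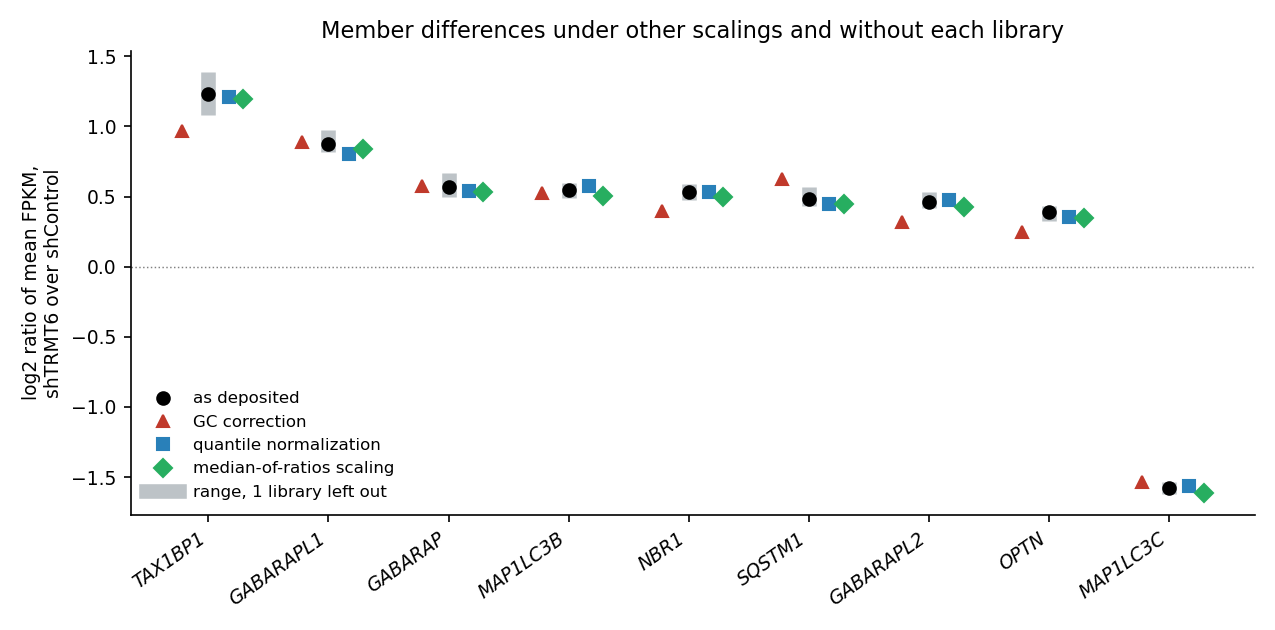
The log2 ratio of mean FPKM (shTRMT6 over shControl) of the 9 genes as deposited, after 3 other scalings, and as the range when each of the 6 libraries is left out. MAP1LC3C stays between -1.62 and -1.54, and the other 8 stay above 0 throughout.

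GABARAP and MAP1LC3B share sequence with another gene. In GENCODE release 29 (GRCh38), GABARAP (ENSG00000170296, chr17:7240014-7242770, minus strand) overlaps the protein-coding gene AC120057.2 on its own strand, and 39.6% of the 75-base windows of its main transcript also occur there. The level of GABARAP is therefore uncertain to the extent that fragments could be assigned to either gene. MAP1LC3B (ENSG00000140941, chr16:87383995-87404779, plus strand) shares 8.91% of its windows with its near-identical copy MAP1LC3B2, which had 0.43, 0.38 and 0.45 FPKM in shTRMT6, against 0.2, 0.31 and 0.1 FPKM in shControl. MAP1LC3C (ENSG00000197769, chr1:241995490-241999073, minus strand, 1 annotated transcript of 4 exons and 1182 bases) shares 1.81% with several unrelated genes. The other 7 genes share none. GABARAPL1 (ENSG00000139112, chr12:10212458-10223130), GABARAPL2 (ENSG00000034713, chr16:75566351-75577881), SQSTM1 (ENSG00000161011, chr5:179806398-179838078), NBR1 (ENSG00000188554, chr17:43170481-43211689), OPTN (ENSG00000123240, chr10:13099449-13138308) and TAX1BP1 (ENSG00000106052, chr7:27739331-27844564) lie on the plus strand, each with 1 or 2 genes overlapping on the minus strand. GABARAP and MAP1LC3B are overlapped on the opposite strand too, MAP1LC3C is not, and the strand setting of the counting is not given in the sources used here. MAP1LC3A (ENSG00000101460) lies at chr20:34546854-34560345 on the plus strand.

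Other genes of autophagy, in lists drawn up by function with earlier results known, were then set beside the 10. Of 105 listed genes in 9 groups of function, 98 reached the level for testing, and 28 rose and 12 fell in shTRMT6 (limma, Benjamini-Hochberg adjusted p under 0.05 over all 10592 tested genes). That is 28.6% higher and 12.2% lower, against 19.3% higher and 16.1% lower among all tested genes, of which 35.4% were called. The median log2 fold change on the log2(FPKM + 1) scale was 0.14, against 0.02 for all tested genes. The count that rose depended on single libraries, with 15 without shTRMT6 replicate 2 and 17 without shTRMT6 replicate 1; among all tested genes the count higher was likewise 1295 and 1305 without those libraries, against 2042 with all 6. With the GC correction and replicate block together, 43 rose and 16 fell, while 2632 of all tested genes were higher and 2630 lower.

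**Figure D4:**
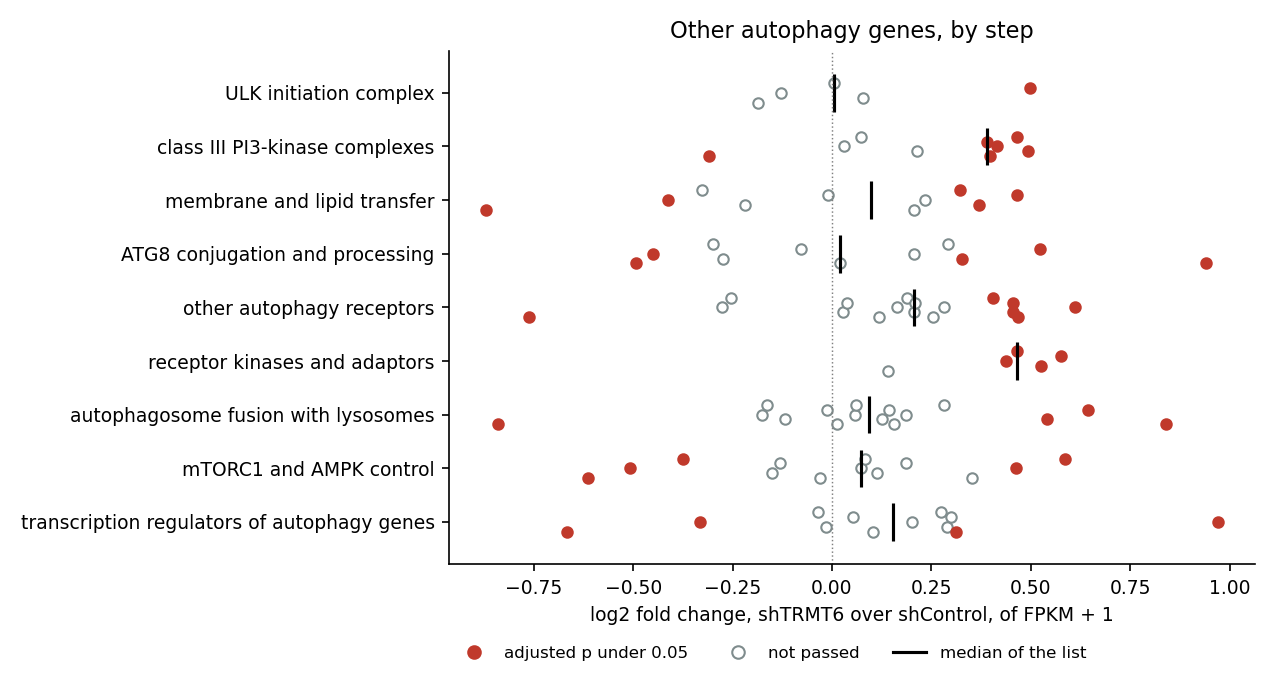
Each point is the log2 fold change (shTRMT6 over shControl, log2(FPKM + 1) scale) of 1 of the 98 tested autophagy genes outside the 10, by step of the pathway; filled points passed the limma test, and black bars are list medians. Filled points lie on both sides of 0 in 7 of the 9 lists.

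The machinery that attaches ATG8 proteins held genes that rose and genes that fell. Of 11 tested genes of ATG8 conjugation and processing, 3 rose, 2 fell and 6 did not pass (27.3% higher, 18.2% lower, median 0.02). Among all tested genes 19.3% were higher and 16.1% lower, with a median of 0.02. ATG4A, one of the proteases that trims ATG8 proteins and in particular those of the GABARAP type, had 7.29, 7.15 and 6.03 FPKM in shTRMT6, against 2.70, 3.36 and 3.16 FPKM in shControl. It rose 2.22-fold (log2 fold change 0.94, SE 0.12, limma adjusted p = 0.000173). ATG5, part of the conjugating complex with ATG12, rose 1.49-fold (0.52, SE 0.14, adjusted p = 0.011). Its call was lost when no filter on levels was set (adjusted p = 0.0562; range over 17 alternatives 0.000369 to 0.0562), where only 1 gene of the list rose. With the GC correction the log2 fold change of ATG5 was 0.28 (adjusted p = 0.0248). ATG3 was the other gene that rose, and the activating enzyme ATG7 and ATG16L2 were those that fell; these 3 are named because the counts are small, after their values were seen.

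Upstream, of 5 genes of the ULK complex, the kinase complex that starts autophagy, RB1CC1 rose and none fell (20% higher, 0% lower). Of all tested genes, 19.3% were higher and 16.1% lower. RB1CC1 averaged 6.44 ± 1.43 FPKM in shTRMT6 and 4.22 ± 0.515 FPKM in shControl (SD, n = 3 each, limma adjusted p = 0.0176). At an unadjusted p under 0.05 also none of the list was lower. The RB1CC1 call was lost without shControl replicate 1 and without shTRMT6 replicate 2 (adjusted p = 0.054 and 0.0962), with the GC correction (log2 fold change 0.24, adjusted p = 0.0876, and 0.0703 with the block) and without a filter (0.0743; range over 17 alternatives 0.00143 to 0.0962). ATG101, the most abundant of those that did not pass, averaged 42.1 ± 4.58 FPKM in shTRMT6 and 46.0 ± 3.28 FPKM in shControl (adjusted p = 0.364). Among 9 genes of the class III PI3-kinase complexes, which make the lipid signal of the growing membrane, 5 rose and RUBCN, an inhibitor of autophagy, fell (55.6% higher, 11.1% lower; median 0.39). PIK3C3, the kinase subunit, rose 1.48-fold (0.49, SE 0.16, adjusted p = 0.0282) and NRBF2, a subunit of the ATG14 complex, 1.46-fold (0.47, SE 0.12, adjusted p = 0.00824). BECN1, ATG14 and SH3GLB1 were the others that rose.

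The PI3-kinase count depended on single libraries. Of its genes, 1 rose without shTRMT6 replicate 2, 2 without shTRMT6 replicate 1 and with the GC correction, and 3 without shControl replicate 3 or without a filter. RUBCN, with an adjusted p of 0.049, was no longer called in 9 of the 17 alternatives, among them each left-out library other than shTRMT6 replicate 3. The PIK3C3 call was lost with the GC correction (log2 fold change 0.24, adjusted p = 0.108), without a filter (0.114), and when shControl replicate 1 (0.0987) or shTRMT6 replicate 2 (log2 fold change 0.32, adjusted p = 0.141) was left out (range over 17 alternatives 0.000742 to 0.141). That of NRBF2 was lost without shTRMT6 replicate 1 (0.0601) and with the GC correction (log2 fold change 0.29, adjusted p = 0.0702; range 0.00147 to 0.0702).

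Among genes of membrane supply, ATG9A had the largest fall of the 98 genes on the log2(FPKM + 1) scale. By the ratio of mean FPKM, TECPR1 of the fusion list fell further (1.93-fold lower, against 1.84-fold for ATG9A). ATG9A, the membrane protein whose vesicles seed the autophagosome, had 46.4, 42.9 and 56.1 FPKM in shTRMT6, against 93.3, 82.7 and 90.9 FPKM in shControl. It fell by 0.87 on the log2 scale (1.84-fold lower, SE 0.11, limma adjusted p = 0.000137) and kept its call in all 17 alternatives. WDR45, a WIPI protein that binds the lipid signal, rose 1.39-fold (0.46, SE 0.11, adjusted p = 0.00493), and its paralog WDR45B was the other gene of this list that fell. In all, 3 of 10 rose and 2 fell (30% and 20%, against 19.3% and 16.1% of all tested genes). The count that rose was 1 without shTRMT6 replicate 1 and 1 without shControl replicate 3, and 4 fell without shControl replicate 1 and with the GC correction.

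Among 17 tested receptors outside the 4 members, 5 rose and 1 fell (29.4% higher, 5.88% lower). Of all tested genes, 19.3% were higher and 16.1% lower. NCOA4, the receptor that carries ferritin to the lysosome, had 80.8, 82.6 and 70.7 FPKM in shTRMT6, against 45.7, 55.8 and 50.8 FPKM in shControl (1.54-fold, 0.61, SE 0.10, limma adjusted p = 0.00088). FUNDC1, NIPSNAP1 and NIPSNAP2 of mitochondrial clearance and the endoplasmic reticulum receptor CCPG1 were the others that rose. The groups of FUNDC1 overlap (9.24 FPKM in shTRMT6 replicate 3 and 9.26 FPKM in shControl replicate 2), and CCPG1 had a limma adjusted p of 0.0432. RTN3, a receptor for tubules of the endoplasmic reticulum, fell by 0.76 on the log2 scale (1.71-fold lower, SE 0.12, adjusted p = 0.000441). The count that rose was 2 without shTRMT6 replicate 2, 3 without shTRMT6 replicate 1 or without a filter, and 9 with the GC correction and block together; 2 fell without shTRMT6 replicate 3, with the GC correction, with the block and under quantile normalization.

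Of 5 tested kinases and adaptors that act on receptors, 4 rose and none fell, also at an unadjusted p under 0.05. That is 80% higher and 0% lower, against 19.3% and 16.1% of all tested genes. The list median was 0.46 on the log2 scale, and 0.27 with the GC correction. AZI2 and TBKBP1, adaptors of TBK1, rose 1.503-fold (0.53, SE 0.12, limma adjusted p = 0.00434) and 1.59-fold (0.58, SE 0.14, adjusted p = 0.00575). Both kept their calls in all 17 alternatives, but with the GC correction the log2 fold change of AZI2 was 0.27 (adjusted p = 0.032; range over 17 alternatives 0.000236 to 0.032). TBK1 itself, which phosphorylates OPTN and SQSTM1, and PINK1, the kinase that marks damaged mitochondria, were the other 2 that rose. TBK1 had 10.97, 12.7 and 8.91 FPKM in shTRMT6, against 7.19, 8.32 and 7.12 FPKM in shControl (0.46, SE 0.13, limma adjusted p = 0.0155). Its groups did not overlap, and 26.2% of all tested genes were likewise apart with shTRMT6 higher. The count that rose was 3 with the GC correction, without a filter, and when shTRMT6 replicate 1 or shTRMT6 replicate 2 was left out. AZI2 and TBKBP1 kept their calls there, so TBK1 or PINK1 was not called.

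Of 16 genes of fusion with the lysosome, 3 rose and 1 fell (18.8% higher, 6.25% lower). The share higher was close to that of all tested genes (19.3% higher, 16.1% lower). VPS41 of the HOPS tethering complex had 9.05, 9.77 and 8.70 FPKM in shTRMT6, against 3.26, 6.15 and 5.02 FPKM in shControl (1.91-fold, 0.84, SE 0.16, limma adjusted p = 0.00187). TECPR1, a tether of the lysosome, fell by 0.84 on the log2 scale (1.93-fold lower, SE 0.12, adjusted p = 0.000264). STX17 and VAMP8 of the fusion SNARE complex were the other genes that rose. SNAP29 of the same complex did not pass (0.14, SE 0.10, limma adjusted p = 0.302). With the GC correction 6 of this list rose, and 7 with the block as well, while 2 rose without a filter, at a mean of at least 5 FPKM and without shTRMT6 replicate 2.

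Among 13 tested genes of mTORC1 and AMPK, the nutrient and energy sensors that hold back and promote autophagy, 2 rose and 3 fell (15.4% and 23.1%). The shares of all tested genes were 19.3% higher and 16.1% lower. TSC2, an inhibitor of mTORC1, fell by 0.61 on the log2 scale (1.59-fold lower, SE 0.10, limma adjusted p = 0.00079), and MTOR and its partner RPTOR were the other genes that fell. DDIT4, a stress-induced inhibitor of mTORC1, had 8.38, 7.87 and 8.76 FPKM in shTRMT6, against 8.08, 4.84 and 3.54 FPKM in shControl, groups that overlap. It was called higher (0.59, SE 0.19, adjusted p = 0.0313), but the call was lost when shControl replicate 2 (0.0566), shControl replicate 3 (log2 fold change 0.36, adjusted p = 0.125), shTRMT6 replicate 1 (0.0719) or shTRMT6 replicate 3 (0.0954) was left out, under quantile normalization (0.0852) and without a filter (0.14; range over 17 alternatives 0.000637 to 0.14). PRKAG2, an AMPK subunit, was the other gene that rose. The count that rose was 1 without shControl replicate 3, without shTRMT6 replicate 1 or 3 and under quantile normalization, and 4 with the GC correction and block together.

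Of 12 tested transcription regulators known for autophagy genes, 2 rose and 2 fell (16.7% each). These shares were near those of all tested genes (19.3% higher, 16.1% lower). ATF4, the stress factor of amino acid shortage, had 148, 146 and 140.1 FPKM in shTRMT6, against 237, 228 and 225 FPKM in shControl, and fell by 0.67 on the log2 scale (SE 0.09, limma adjusted p = 0.000141).

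Of 5 regulators known to act on the genes of p62 and the ATG8 family, or on such a factor, 1 passed the test. TFEB averaged 2.54 ± 0.136 FPKM in shTRMT6 and 2.59 ± 0.28 FPKM in shControl (SD, n = 3 each; log2 fold change -0.02, limma adjusted p = 0.938), and TFE3 34.7 ± 2.25 FPKM in shTRMT6 and 33.5 ± 3.22 FPKM in shControl (0.05, adjusted p = 0.723). FOXO3 averaged 4.42 ± 0.187 FPKM in shTRMT6 and 3.48 ± 0.194 FPKM in shControl (0.27, adjusted p = 0.0789). NFE2L2, which encodes NRF2 and acts on SQSTM1, rose 1.26-fold (0.31, SE 0.10, adjusted p = 0.0304), and its inhibitor KEAP1 averaged 48.1 ± 1.76 FPKM in shTRMT6 and 41.9 ± 4.29 FPKM in shControl (0.20, adjusted p = 0.134). The NFE2L2 call was lost when shControl replicate 2 (0.0502), shControl replicate 3 (0.0853), shTRMT6 replicate 1 (0.104) or shTRMT6 replicate 2 (0.137) was left out (range over 17 alternatives 0.0104 to 0.137), and with the GC correction its log2 fold change was 0.21. With the GC correction TFE3, FOXO3 and KEAP1 passed (adjusted p = 0.0436, 0.0294 and 0.0036, ranges over their alternatives 0.0134 to 0.988, 0.0294 to 0.234 and 0.0003 to 0.402), KEAP1 also without shControl replicate 1 (0.0291), and 7 regulators were called higher. The count higher was 4 without shControl replicate 1 and 1 without shControl replicate 2 or shTRMT6 replicate 1 or 2. The count lower was 1 without shControl replicate 3 or shTRMT6 replicate 1 or 2.

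Across the 6 libraries, the tested genes outside the members whose log2(FPKM + 1) ran most like MAP1LC3C were CUL7, GTPBP3 and DDX11 (Pearson r 0.9996, 0.9991 and 0.9976). CUL7, a cullin of ubiquitin ligases, had 2.28, 2.41 and 2.45 FPKM in shTRMT6, against 4.66, 4.70 and 4.45 FPKM in shControl. GTPBP3 modifies mitochondrial tRNAs and DDX11 is a DNA helicase. For GABARAPL1 they were ATP5PD, a subunit of ATP synthase, IFI16, a DNA sensor, and LACTB2 (r 0.9984, 0.9983 and 0.9982). The 6 points form 2 groups of 3, so r mostly follows the group difference. It exceeded 0.95 for 459 tested genes (4.34%) with MAP1LC3C and for 853 (8.06%) with GABARAPL1.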

How the data were processed

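RNA of 3 shTRMT6 and 3 shControl libraries of RKO cells was sequenced, and libraries were grouped by sample title. FPKM values for each gene were deposited by the authors, as the column names state. StringTie 1.3.1, RSEM, HISAT2, fastp 0.18.0 and Bowtie2 2.2.8 appear, with no role given, in the submitters' processing notes. Genome build and annotation are not given in the sources used here. Table columns, named NC and SH, were matched to titles by group and number.

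Symbols came from a gene name table (20257 of 20289 identifiers) and GENCODE release 29 (30 more), which also gave coordinates, GC content and 75-base windows. FPKM is not a count, so limma 3.58.1 (R 4.3.3) was run on log2(FPKM + 1) of the 10592 genes that averaged 1 FPKM or more over the 6 libraries. The test was two-sided, used a trended prior for the variance and a threshold of 0.05 after Benjamini-Hochberg adjustment, and was tested on simulated data. Fold changes on this scale understate those of low genes. Since separate cultures are not stated, p-values reflect only differences among the libraries at hand, possibly technical ones.

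Members and lists were chosen with earlier results of these data known. Named genes were TRMT6, the members, the 2 genes with the largest change among those called in each list (or the most abundant one not called), 5 regulators, 3 genes most like MAP1LC3C and 3 most like GABARAPL1, and near-identical copies of members. Some genes of the regulator list are not reported here by name. Same-numbered libraries deviated together from their group means (r = 0.21, 0.36 and 0.17 for replicates 1, 2 and 3; other pairs -0.29 to 0.094), so a replicate block was run as an alternative; what a number stands for is not stated. Depth estimates assume GENCODE lengths, and are rough. Alternatives were 2 pseudocounts, 2 filters, 2 scalings, 2 variance priors, the block, a GC correction (a lowess curve of each library's deviation on transcript GC, removed) with and without the block, and each library left out.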

Additional observations from a re-analysis of the deposited data

How the results depend on the processing

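The count of 28 autophagy genes outside the members that rose ran from 15 to 28 when single libraries were left out, and was 43 with the GC correction and replicate block together; the cause of that last change was not tested. It was 33 with the replicate block alone and 33 with the GC correction alone, and 19 without a filter on low values, where 15015 genes were tested. Among all tested genes, 2042 were higher as deposited. That number was 2632 with the GC correction and block together, 2702 with the block alone and 2092 with the GC correction alone. Without a filter it was 1570. The count of 12 that fell ran from 9 to 13 without single libraries and reached 16 with the GC correction. It was 15 with the replicate block. Among all tested genes, 1704 were lower as deposited, 2075 with the GC correction and 2252 with the block. The block alone changed no call of a gene given with its statistics. TRMT6 kept its call in all 17 alternatives. The log2 fold change of ATG101 was 0.016 with the GC correction, alone and with the block, and that of TFEB 0.136; without single libraries TFEB ran from -0.05 to 0.048, with 0.048 without shControl replicate 1 and 0.001 without shTRMT6 replicate 3, and none of these passed. Among members, the GC correction moved GABARAPL2, NBR1 and OPTN by more than the spread between libraries, to log2 ratios of 0.32, 0.40 and 0.24. The share of calls that were higher was 54.5% as deposited, 50.2% with the GC correction and 48.6% with median-of-ratios scaling. Genes that averaged under 1 FPKM, such as MAP1LC3A, were left out of the test, apart from the alternative without a filter. Each group has 3 libraries, and the depth estimates are rough.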
